A study of Mus musculus with 12 samples.

Results

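The Ifi200 genes, also called HIN-200 or PYHIN genes, form a cluster on mouse chromosome 1 and were examined in newborn male germ cells with and without Morc1. The family was chosen by 8 listed symbols (Ifi203, Ifi204, Ifi202b, Ifi205, Mnda, Mndal, Aim2 and Pyhin1), and 6 of these 8 were found among the 35666 genes of the deposited gene table. Mnda and Pyhin1 are not symbols of GENCODE M21. RefSeq lists Mnda as a synonym of Ifi211 and Pyhin1 as a synonym of Ifi209, and both of these genes were measured as part of a second list of 8 further HIN-200 genes (Ifi203-ps, Ifi206, Ifi207, Ifi208, Ifi209, Ifi211, Ifi213 and Ifi214). Ifi203 was chosen because its rise in the knockout was already known, so its values are given as a description and no p is printed for it. Its call is counted where the fit over all genes is summarised, and nothing is read from that. The transposable element (TE) copies within 50 kb of Ifi203, 18 of 298593 listed copies, complete the set.

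Gonocytes, the male germ cells around birth, were isolated by means of an Mvh-Venus transgene that marks germ cells. The compared groups were Morc1 (+/-) animals, called het, and Morc1 (-/-) animals, called KO, at postnatal day 0 (P0), with 3 libraries each. Both groups carry the transgene, all cells are male, and the strain is not given in the sources used here. Nothing in the labels says that the libraries came from separate animals, so p-values measure the spread between libraries, which may be technical.

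HIN-200 proteins bind DNA through a HIN domain, and most of them carry an N-terminal pyrin domain that recruits signalling partners. Their genes are classic targets of interferon, the cytokine that cells release on sensing foreign nucleic acid, and the family is best known from macrophages and lymphocytes. MORC1 is a germ cell ATPase needed for silencing TEs in male germ cells.

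The 50 bases around the interferon-response motif show how similar the upstream sequences of the family are, and are printed here to set the response motif of Ifi203 beside those of other members. The motif searched was the core of the interferon-stimulated response element, GAAA followed by any 2 bases and a second GAAA, on both strands of the RefSeq windows from 250 bases before to 50 bases after each start (GRCm38.p6). A match was found in 3.44% of 32851 such windows of all genes. Of the 14 measured HIN-200 genes, 12 had a window, and 9 of these 12 held a match (Ifi203, Mndal, Ifi205, Ifi211, Ifi206, Ifi207, Ifi208, Ifi213 and Ifi214). These letters were not in the windows of Aim2, Ifi209 and Ifi202b. A match is a description of the letters only. All positions below are on chromosome 1, minus strand except Ifi208, and capitals mark the match.
Ifi203 at chr1:173942498-173942547: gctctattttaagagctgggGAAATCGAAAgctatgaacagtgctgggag
Ifi205 at chr1:174031860-174031909: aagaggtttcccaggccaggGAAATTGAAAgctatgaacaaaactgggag
Ifi211 at chr1:173913054-173913103: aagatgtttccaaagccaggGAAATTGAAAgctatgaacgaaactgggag
Ifi207 at chr1:173741821-173741870: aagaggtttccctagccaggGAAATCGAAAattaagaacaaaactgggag
Ifi208 at chr1:173673587-173673636: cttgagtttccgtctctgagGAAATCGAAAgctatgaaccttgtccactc
Ifi214 at chr1:173536007-173536056: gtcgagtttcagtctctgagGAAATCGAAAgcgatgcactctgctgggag
The motif of Ifi203 began 35 bases before its start. The windows of Ifi203 and Mndal were 97.6% identical over 289 aligned bases, and the 50 bases shown for Ifi203 were the same in Mndal. The windows of Ifi205 and Ifi211 were 94.0% identical over 201 bases.

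The family is also alike in its transcripts, which bears on how reads were assigned. The longest transcript of Ifi203 and that of the pseudogene Ifi203-ps were 97.8% identical over 671 aligned bases. A coding stretch of Ifi203 and its counterpart in the pseudogene, with the differing bases in capitals, show how few letters separate reads of this part.
Ifi203 at chr1:173927163-173927222: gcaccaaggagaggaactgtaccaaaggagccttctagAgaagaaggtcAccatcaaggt
Ifi203-ps at chr1:173781136-173781195: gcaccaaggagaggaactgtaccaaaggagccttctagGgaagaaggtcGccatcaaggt
Of the 50-base windows along all exons, 12.4% of those of Ifi203 and 26.3% of those of Ifi203-ps also occur, letter for letter, in another annotated gene. Those shared with Ifi203-ps made up 8.85% of the windows of Ifi203. Of the windows of Ifi211, 72.8% occurred in another annotated gene, the highest share among the 14 HIN-200 genes, and of those of Ifi202b 0.0%. How reads matching several places were counted is not given in the sources used here, so values of Ifi203-ps, Ifi211 and other near copies are uncertain to that extent.

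Ifi203 is a protein-coding gene on the minus strand from 173920407 to 173942672 (ENSMUSG00000039997 in the gene table), and its product is a nuclear HIN-200 protein. Its normalized counts, in the order of the replicate numbers as everywhere below, were 118.2, 147.8 and 91.68 for het. For KO they were 1354, 1182 and 726. Every KO library was above every het library, and the lowest KO value was several times the highest het value. The means were 119.2 ± 28.06 (SD, n = 3) in het and 1087 ± 324.3 (SD, n = 3) in KO, a ratio of 9.12. On the log2(normalized count + 1) scale, on which all log2 differences below are given, the difference was 3.16 with a standard error (SE) of 0.32. These values chose the gene and support nothing further. Per kb of exon, 21.4% of 25967 tested genes with a position lay below Ifi203 in the het mean and 66.8% in the KO mean.

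Mndal, which encodes another nuclear member of the family, is a minus-strand gene from 173849126 to 173942491 that spans Ifi211 and nearly all of Ifi203. Its normalized counts were 14.3, 10.62 and 2.926 for het and 68.27, 63.03 and 149.9 for KO. The groups did not overlap, and KO replicate 3 was the highest. The KO mean of 93.74 ± 48.72 was 10.1 times the het mean of 9.285 ± 5.806 (SD, n = 3 each). The log2 difference of 3.30 (SE 0.66) did not pass limma with adjustment over all genes (adjusted p = 0.0774). It passed in DESeq2 on recovered reads (adjusted p = 0.000133) and with a pseudocount of 10 (limma adjusted p = 0.0391). Its het mean was under 10, so it passed the limit for testing through the KO libraries. With every listed gene tested its limma adjusted p was 0.0652.

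One annotated Mndal transcript starts within the first exon region of Ifi203, and the genes share 37 exon bases on the same strand. Reads from there cannot be given to one of them with certainty. The ratio of Ifi203 to Mndal ranged from 8.27 to 31.3 in het libraries and from 4.84 to 19.8 in KO libraries, so the 2 genes did not keep a fixed proportion. The lowest ratio, 4.84, was that of KO replicate 3.

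Ifi205, whose product is a pyrin-domain HIN-200 protein, lies from 174011998 to 174031810. It had 22.89, 4.829 and 6.827 normalized counts in het and 40.57, 55.8 and 151.9 in KO. Every KO library was again above every het library, with KO replicate 3 the highest. The log2 difference was 2.79 (SE 0.72), which did not pass the limma test (adjusted p = 0.216) and passed in DESeq2 on recovered reads (adjusted p = 0.0141). The 36 reads of the 3 het libraries together, against 250 in KO, limit its precision.

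The remaining listed members showed no difference past the threshold. Ifi204, a nuclear and cytosolic DNA sensor that acts through STING, had 86.77, 58.92 and 79 in het and 64.31, 46.5 and 8.818 in KO. Its KO values overlapped the het values, and the log2 difference was -1.26 (SE 0.67, limma adjusted p = 0.808). Ifi202b, which lacks a pyrin domain and inhibits Aim2, had 19.07, 16.42 and 4.876 in het, against 7.916, 15.5 and 40.17 in KO. The groups overlapped, with KO replicate 3 above all others and a log2 difference of 0.52 (SE 0.82, limma adjusted p = 0.948). Aim2, the cytosolic sensor of double-stranded DNA that forms an inflammasome, had 60.07, 56.99 and 160.9 in het and 114.8, 99.19 and 101.9 in KO. All KO values of Aim2 lay inside the het range, and the log2 difference was 0.35 (SE 0.44, limma adjusted p = 0.935).

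**Figure D1:**
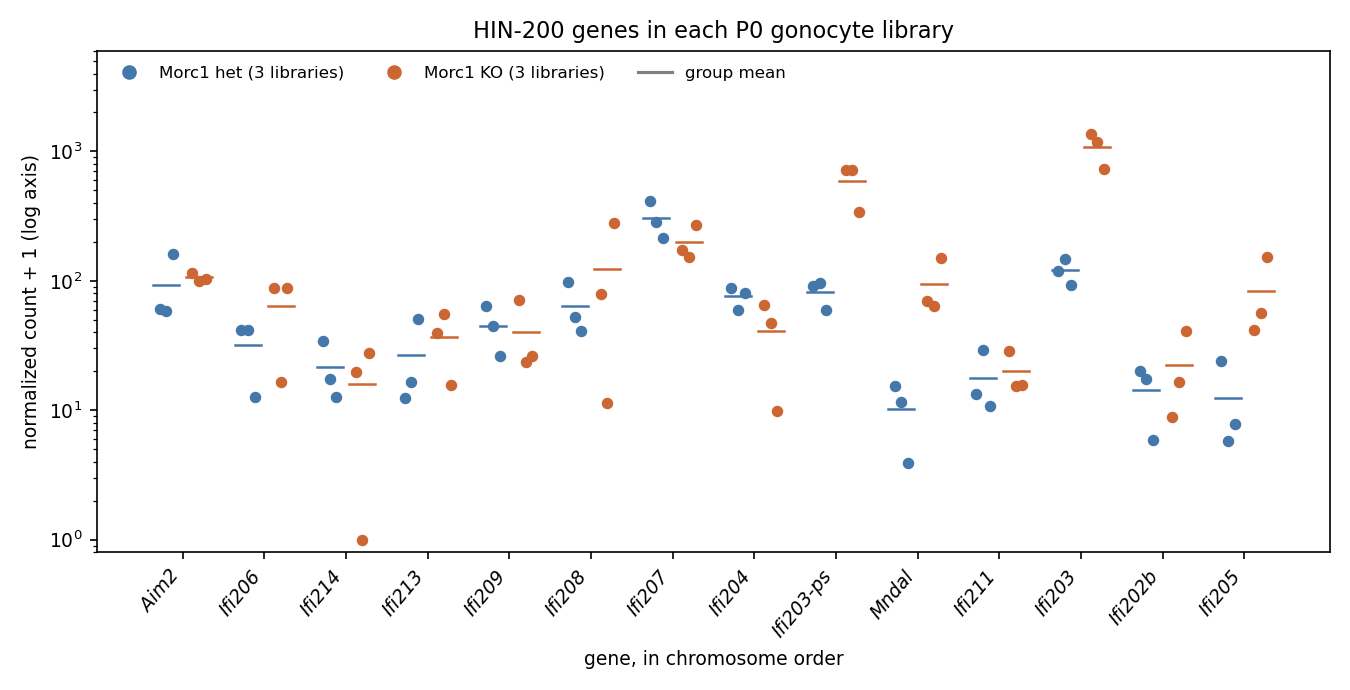
Normalized count + 1 on a log axis for each of the 14 measured HIN-200 genes in chromosome order, with 1 point per library and a line at each group mean. The 3 KO points lie above the 3 het points for Ifi203, Ifi203-ps, Mndal and Ifi205, and the groups overlap for the other 10 genes.

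Of the 6 listed genes found, all 6 had a mean of at least 10 and were tested. Ifi203 was called higher by limma at an adjusted p under 0.05, which its choice fixed, and 0.431% of all 26005 tested genes were called higher. None of the other 5 was called in either direction, and 0.0423% of all genes were called lower. At an unadjusted p under 0.05, Mndal and Ifi205 were the 2 of those 5 that were higher, beside 4.42% of all tested genes. On recovered reads, edgeR called none of the 5, and 121 of all 26005 tested genes higher. DESeq2 called those 2 higher, and 400 of all tested genes. Every KO library was above every het library for Mndal and Ifi205, 2 of these 5 genes, against 7.17% of all tested genes. Mndal passed the limit for testing only through KO and shares exon bases with Ifi203, so nothing is read from its part in these counts. The median log2 difference of the 5 was 0.52, beside -0.02 over all tested genes.

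Among the 8 further HIN-200 genes, Ifi203-ps rose. Ifi203-ps is an unprocessed pseudogene from 173776529 to 173798270 that had 90.59, 95.62 and 58.52 normalized counts in het and 722.3, 712.9 and 340 in KO. All KO libraries were above all het libraries, and in each group replicate 3 was the lowest, as it was for Ifi203. The KO mean of 591.7 ± 218.1 was 7.25 times the het mean of 81.58 ± 20.13 (SD, n = 3 each), with a log2 difference of 2.80 (SE 0.37, limma adjusted p = 0.0113). The call was lost without KO replicate 1 (adjusted p = 0.103), without the moderation trend of limma (adjusted p = 0.0611), and with het replicate 3 and KO replicate 2 left out together (adjusted p = 0.0822). Because near-identical sequence links it to Ifi203, the share of its reads that came from Ifi203 was not tested. The ratio of Ifi203 to Ifi203-ps ranged from 1.31 to 1.57 in het and from 1.66 to 2.14 in KO.

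No other gene of the second list was called by limma. Ifi207 was the most abundant HIN-200 gene of het cells and had 412.9, 285.9 and 211.6 normalized counts there, against 172.2, 150.9 and 271.4 in KO (log2 difference -0.61, SE 0.35, limma adjusted p = 0.826). Ifi208 had 96.31, 51.19 and 39.99 in het, against 78.17, 10.33 and 279.2 in KO. The KO values of Ifi208 spanned the whole het range, and the log2 difference was 0.09 (SE 0.95, limma adjusted p = 0.993).

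Ifi206 had a log2 difference of 0.84, Ifi213 of 0.58 and Ifi211, the gene with Mnda as a synonym, of 0.25, with limma adjusted p of 0.898, 0.934 and 0.971. Ifi209, the gene with Pyhin1 as a synonym, had a difference of -0.25 and Ifi214 of -1.27 (limma adjusted p = 0.966 and 0.908). The groups overlapped in each of these genes. With Ifi203 and Ifi203-ps set aside, limma called none of 12 HIN-200 genes (2 at an unadjusted p under 0.05 and 2 by DESeq2, Mndal and Ifi205 in both). Over all 26005 tested genes, 4.42% were higher at that unadjusted p, and DESeq2 called 400 higher. Of the 12, 8 had a positive and 4 a negative log2 difference, and their median was 0.30.

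**Figure D2:**
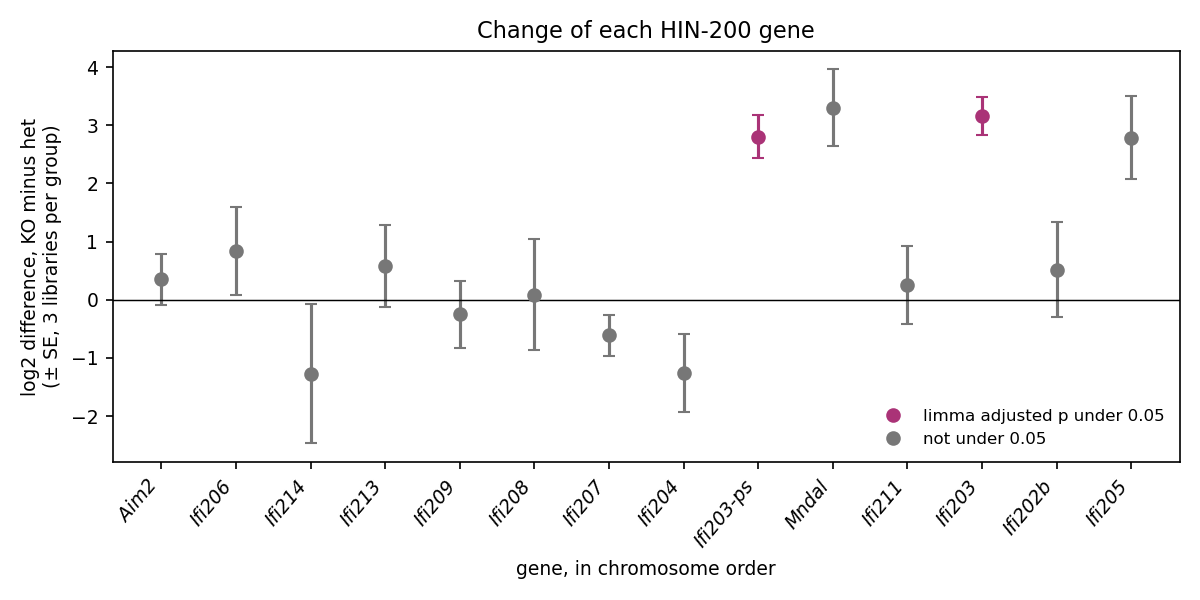
Log2 difference between KO and het (points) with its SE (bars) for 14 HIN-200 genes in chromosome order. Ifi203-ps at 2.80 and Ifi203 at 3.16 are the coloured points, and Ifi203 was chosen for this difference. Mndal and Ifi205 lie at a similar height with wider bars.

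Summed over the 14 genes, the family had 1082, 872.2 and 764.6 normalized counts in het, against 2864, 2444 and 2238 in KO. The KO sums were all above the het sums, and they include Ifi203, which was chosen for its rise. Ifi203 made up 10.9% to 16.9% of the sum in het libraries and 32.4% to 48.4% in KO libraries. This larger share followed from its choice, so nothing is read from it. Without Ifi203 and Ifi203-ps, the other 12 genes summed to 873.5, 628.8 and 614.4 in het and 788.6, 548.7 and 1172 in KO, and these sums overlapped.

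**Figure D3:**
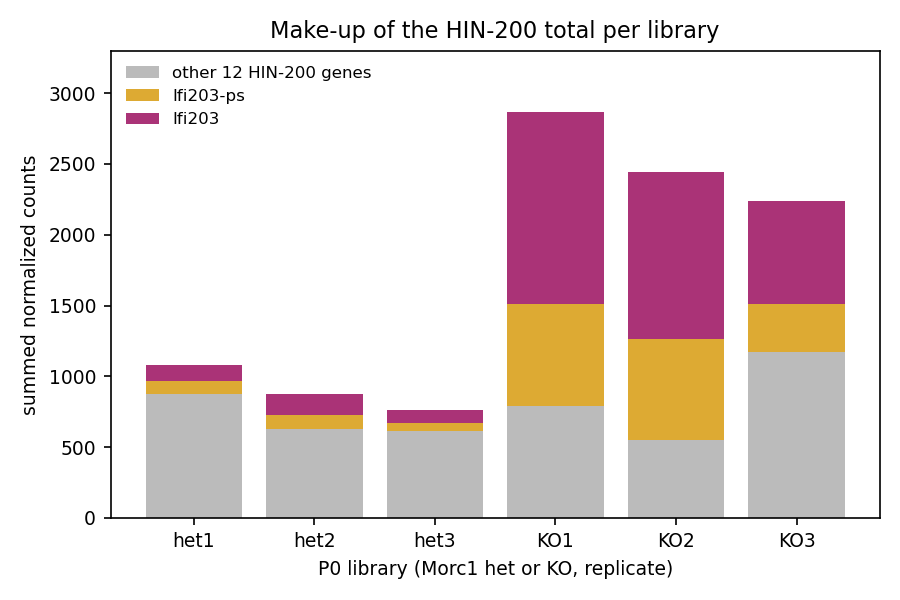
Summed normalized counts of the 14 HIN-200 genes in each P0 library, split into Ifi203, Ifi203-ps and the other 12 genes. The other 12 genes sum to 614.4 to 873.5 in het and 548.7 to 1172 in KO. The Ifi203 share is larger in each KO library than in any het library, which followed from its choice.

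Per kb of exon, the order of levels differed between the groups. In het, Ifi207 was first with 88.7 ± 29.7 normalized counts per kb and lay above the range of the next gene. It was followed by Ifi203-ps (31.9 ± 7.87), Aim2 (26.5 ± 16.9), Ifi204 (21.0 ± 4.04) and Ifi203 (17.8 ± 4.18), and each of these overlapped the next in its range. Ifi205 (2.76 ± 2.37), Mndal (2.56 ± 1.60) and Ifi214 (2.53 ± 1.41) were the lowest per kb and overlapped one another (SD, n = 3 for each).

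In KO, Ifi203-ps was first with 232.0 ± 85.3 normalized counts per kb and overlapped Ifi203 at 162.0 ± 48.4. Ifi203 lay above the range of Ifi207 (57.9 ± 18.8), and Ifi207 above that of Aim2 (30.1 ± 2.38). Mndal reached 25.8 ± 13.4 and Ifi205 19.8 ± 14.4 per kb, both overlapping their neighbours in the order. Ifi214 stayed last at 1.86 ± 1.68.

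The 5 tested genes whose profile was most like that of Ifi203 were found by the smallest root mean square (RMS) difference of centred log2 values over the 6 libraries. This ranking starts from the values that chose Ifi203, so it is a description and nothing is read from it. Ifi203-ps, which shares 24.3% of its 50-base windows with Ifi203, was first of 26004 genes (RMS 0.23). The next 4 lay outside the cluster. They were the lincRNA Gm27216 (RMS 0.28), the pseudogene Gm18840 (0.30), the antisense RNA Gm16897 (0.43) and the olfactory receptor gene Olfr695 (0.45). Gm27216 on chromosome 9 had 133.5, 119.8 and 90.7 normalized counts in het and 1019, 1316 and 942.6 in KO, close to the levels of Ifi203. Among the other HIN-200 genes, Mndal ranked 149 (RMS 0.81) and Ifi205 ranked 522 (RMS 1.10), while Ifi204 ranked 24553 (RMS 2.31).

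TE copies around Ifi203 were then compared. TE copies are remnants or intact insertions of mobile elements, and the table gives their positions and strands without a family name. Of the 18 copies within 50 kb of Ifi203, 8 overlapped the gene and 10 did not. No copy lay over any of the 9 annotated starts of Ifi203 transcripts. The nearest copy, from 173944349 to 173945926, lay 1677 to 1895 bases upstream of those starts and had 0, 1.122 and 6.709 normalized counts in het and 0, 6.966 and 0 in KO, too few to be tested.

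With a mean of at least 10 required, 6 of the 18 copies were tested and limma called 5 of them higher in KO, beside 15.6% of all 49781 tested copies. All 6 had every KO library above every het library, beside 22.8% of all tested copies. All 6 also had a het mean under 10, so they passed only through the KO libraries and had to differ, and nothing is read from these counts. With every listed copy tested, 5 of the 18 were called higher, beside 2.99% of all 298593 copies. Of the 6, 5 lay within Ifi203 and followed from its choice, since reads of the gene and of copies inside it cannot be told apart. Among these, the 4 over exons had 161.2, 100.6 and 111.2 normalized counts in total in KO and 14.77, 35.9 and 12.46 in het. The intronic copy from 173931815 to 173932145, on the strand of the gene, was almost without reads in het (0, 0 and 0.9585) and had 32.43, 10.06 and 17.96 in KO.

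The 3 other named copies inside Ifi203 all overlapped exons. The copy from 173921630 to 173921803 had 6.328, 7.852 and 3.834 in het, against 69.63, 30.19 and 35.93 in KO. The copy from 173921949 to 173922075 had 2.109, 3.365 and 0.9585 in het and 29.57, 10.84 and 25.66 in KO. For the copy from 173933136 to 173933797 the het values were 4.219, 6.73 and 4.792 and the KO values 35.29, 40.25 and 25.66. In each of these the groups were apart, as they were for the gene that contains them.

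The 1 tested copy within 50 kb but outside Ifi203 lay from 173988239 to 173993413 on the plus strand, 45567 bases from the gene. It sits inside the pseudogene Gm18445, on the opposite strand to it. The copy was 5175 bases long and had 0, 1.122 and 0.9585 normalized counts for het and 30.52, 8.514 and 71 for KO. With at most 1 read in each het library, the KO mean was at least 10.9-fold higher than a floor of 3 reads per library. Its log2 difference was 4.11 (SE 1.05), with a limma adjusted p of 0.00174 when every listed copy was tested and 0.0190 among copies with a mean of at least 10, a limit it passed only through KO. The call was lost without KO replicate 1 (adjusted p = 0.107) and with a pseudocount of 0.1 (adjusted p = 0.0506). Without KO replicate 3, which had the most reads, the copy fell below the limit and was not tested. Gm18445 itself had 0, 0 and 0.9753 normalized counts in het and 1.979, 3.1 and 11.76 in KO, too few to be tested.

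Over the whole cluster, from the start of Aim2 to the end of Ifi205, 86 copies were listed. With every listed copy tested, limma called 12 of them higher and none lower, beside 2.99% of all listed copies called higher. Those 12 include the 4 within Ifi203 that followed from its choice. Beyond 50 kb of Ifi203, 7 of 68 were called higher, and 2 of these lie inside Ifi203-ps, which is near-identical to Ifi203 in part.

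The copies of the cluster were also set out by length, with a limit of 5000 bases chosen after the values were seen, so the counts are a description. With every listed copy tested, 5 of 9 copies of at least that length and 7 of 77 shorter ones were called higher. Over the genome, limma called 35.6% of 12707 listed copies of at least 5000 bases higher and 1.54% of 285886 shorter ones. The 4 long copies of the cluster that were not called had a mean under 10, and 2 of these lie inside Ifi213. Of the 5 called, 4 had a het mean under 10. The adjusted p-values given for them below are among copies with a mean of at least 10, and with every listed copy tested they ranged from 0.000665 to 0.00174.

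The longest of the 5 called was a copy of 6340 bases, from 173787288 to 173793627, in an intron of Ifi203-ps and on its strand. It had 5.273, 4.487 and 1.917 normalized counts in het, against 51.51, 47.22 and 65.01 in KO. The 3 KO libraries were close together and far above het, with a log2 difference of 3.57 (SE 0.60, limma adjusted p = 0.00217). Unlike Ifi203-ps itself, it was not lowest in KO replicate 3.

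A copy of 5323 bases lay inside Ifi205 on the opposite strand, from 174017910 to 174023232. In het it had 9.492, 4.487 and 17.25 normalized counts, and in KO 60.09, 70.44 and 139.4. The groups were apart and KO replicate 3 was the highest, as for Ifi205 itself (log2 difference 3.06, SE 0.58, limma adjusted p = 0.00408). Strand handling in the counting is not given in the sources used here, so reads of this copy and of Ifi205 cannot be told apart by strand.

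The other 2 long copies called higher were intergenic. One, from 173540331 to 173545407 on the plus strand, lay 4374 bases from Ifi214 and had 0, 2.243 and 3.834 in het and 22.89, 71.98 and 39.35 in KO (log2 difference 4.04, SE 0.85, limma adjusted p = 0.00712). Its call was lost without KO replicate 2 (adjusted p = 0.0687) and with a pseudocount of 0.1 (adjusted p = 0.0507). Ifi214 had overlapping groups, as described above, beside this copy.

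The second, from 173832943 to 173838429 on the plus strand, lay between Ifi203-ps and Mndal. It had 8.437, 1.122 and 9.585 in het, against 34.34, 51.86 and 112.1 in KO. The groups were apart (log2 difference 3.32, SE 0.74, limma adjusted p = 0.00978), and the call was lost without KO replicate 3 (adjusted p = 0.0751).

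**Figure D4:**
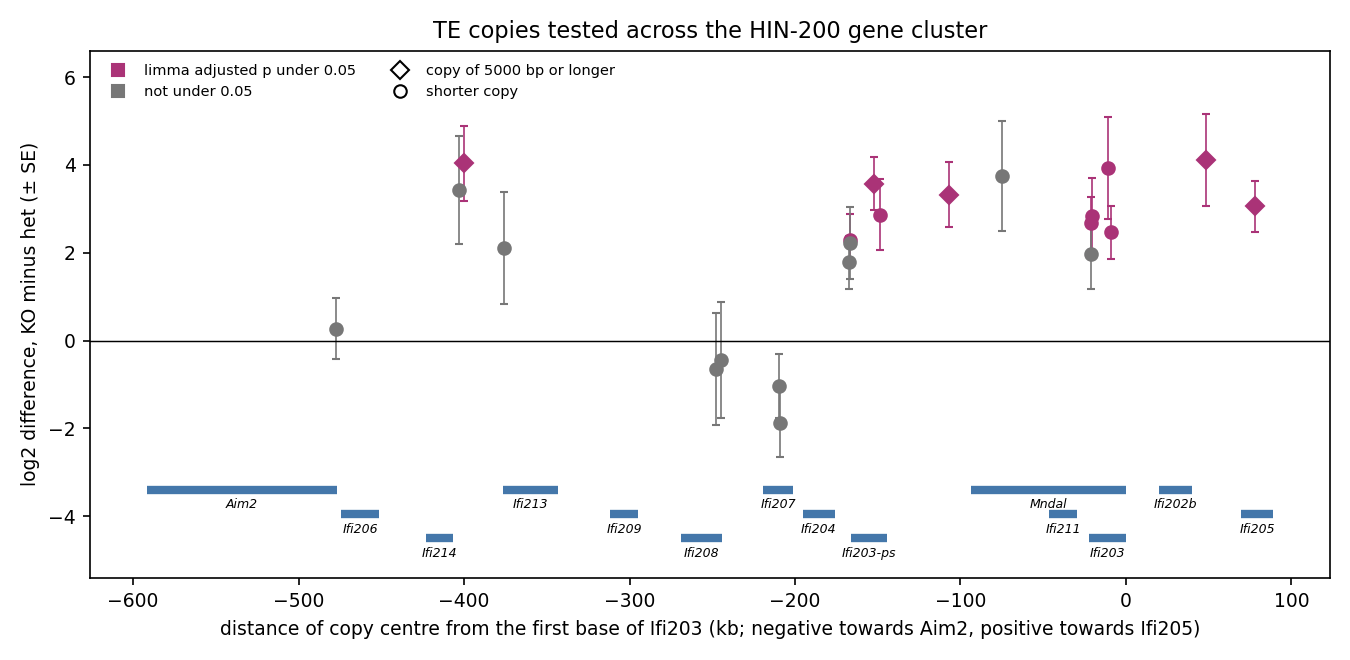
Log2 difference between KO and het (points, with SE) of the 22 TE copies of the HIN-200 cluster with a mean of at least 10 against the distance of the copy's centre from the first base of Ifi203 in kb. Bars at the bottom mark the 14 genes. The 5 plotted copies of at least 5000 bases (diamonds) lie above 3, and the copies in Ifi207 and Ifi208 lie below 0. Of the 22 copies, 15 had a het mean under 10 (4 diamonds and 11 shorter copies). These 15 passed the limit only through KO and had to differ, so nothing is read from their height.

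Ifi203 and Ifi203-ps carry copies at matching places. For 5 pairs of copies, of the same strand and lengths within 5 bases, the distance between partners was 146010 to 146086 bases. The intronic pair of 331 bases had KO means of 20.15 in Ifi203 and 10.26 in Ifi203-ps, and het means of 0.3195 and 0.9585. The longest copy inside Ifi203 had 901 bases, so the copy of 6340 bases in the pseudogene has no partner of its length in Ifi203.

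A copy called higher lay inside the gene, off its own exons, in 4 of the 14 HIN-200 genes (Ifi203, Ifi203-ps, Mndal and Ifi205). The same held for 3.40% of 25967 tested genes with a position and for 41.1% of the 112 genes called higher. The called copies in Ifi203, Mndal and Ifi203-ps had het means under 10. They passed the limit for testing only through KO and had to differ, so nothing is read from these counts. That Ifi203 holds such a copy followed from its choice. The called copies in question for Mndal were all copies inside Ifi203, so its entry followed from that choice too. Among the other 10 genes, the nearest such copy lay 4374 bases from Ifi214, 5495 from Ifi202b, 8584 from Ifi211 and 8995 from Ifi204, and all 4 genes had overlapping groups.

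The rest of the interferon pathway was read from lists. Of 52 interferon-stimulated genes, 50 were found and 48 tested. Limma called 1 higher and none lower, beside 0.431% of all tested genes higher and 0.0423% lower. The median log2 difference was -0.12, beside -0.02 over all tested genes. The called gene was Ifi44 on chromosome 3, which encodes an interferon-induced cytoplasmic protein. It had 105.8, 119.8 and 60.47 normalized counts in het, against 557.1, 330.6 and 736.8 in KO. The groups did not overlap (log2 difference 2.48, SE 0.39, limma adjusted p = 0.0251), and the call was lost when any of het replicates 1 and 3 and KO replicates 1 and 3 was left out (adjusted p = 0.0553 to 0.180) and without the limma trend (adjusted p = 0.104).

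The most abundant interferon-stimulated genes per kb did not pass. B2m, the light chain of MHC class I, had 1788, 1646 and 2237 in het and 1969, 1866 and 1888 in KO (log2 difference 0.03, limma adjusted p = 0.993). Bst2, a surface protein that tethers budding virus, had a log2 difference of -0.40 (limma adjusted p = 0.893). Ifi27 had 1636, 1195 and 2050 in het and 691.6, 705.7 and 901.4 in KO. All KO values of Ifi27 were below all het values, and the difference of -1.06 did not pass limma (adjusted p = 0.179) but passed DESeq2 on recovered reads (adjusted p = 0.00894). At an unadjusted p under 0.05, 3 genes of the list were higher and 3 lower, beside 4.42% and 2.44% of all tested genes.

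Upstream in the pathway, 15 interferon and receptor genes were listed, 11 were found and 8 were tested. The interferons Ifna1, Ifna2, Ifna4 and Ifnb1 were not found, and Ifne, Ifng and Ifnl3 were found but not tested. Ifnk and Ifnl2 were the only interferons tested, and the rest were receptor chains. Limma called none of the 8, with a median log2 difference of -0.08 and none at an unadjusted p under 0.05 (edgeR and DESeq2 on recovered reads called 0 too). Among these, the receptor chains Ifnar1, Ifngr2 and Ifngr1 were the most abundant per kb, with differences of 0.06, -0.21 and 0.06. None of 12 signalling genes was called by limma, edgeR or DESeq2. At an unadjusted p under 0.05, 1 was lower, beside 2.44% of all tested genes. The kinases Jak1 and Jak2 differed by 0.02 and 0.11 and the transcription factor Irf1 by -0.40.

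Of 20 genes of DNA sensing and the inflammasome, 17 were tested and none was called by limma or edgeR. The most abundant per kb were Rnaseh2b, Rnaseh2a and Il18, with log2 differences of 0.11, 0.22 and 0.17. Naip5, a sensor of bacterial flagellin, was chosen after its values were seen. It had 111.6, 114.9 and 206.8 in het and 429.4, 373 and 598.7 in KO, groups that did not overlap. Its log2 difference of 1.72 (SE 0.34) did not pass limma (adjusted p = 0.0702) and passed DESeq2 on recovered reads (adjusted p = 0.000351), as the only gene of the list at an unadjusted p under 0.05. Over all tested genes, 4.42% were higher at that unadjusted p.

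**Figure D5:**
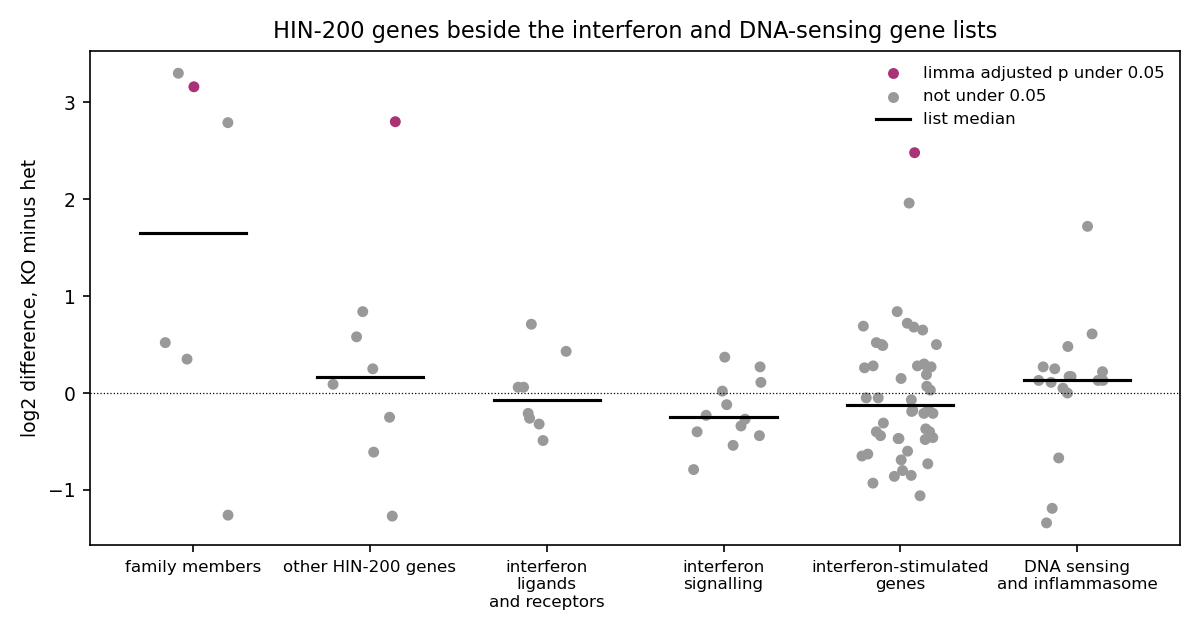
Log2 difference between KO and het of each tested gene (points) in the 2 HIN-200 lists and 4 pathway lists, with a line at each list's median. The medians of the 4 pathway lists lie between -0.25 and 0.13, and Ifi44 is the 1 coloured point among them.

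The libraries were checked against their labels and for other cells. Libraries held 28363683 to 32816861 reads over genes and 1974504 to 3703419 over TE copies. Morc1 had 4126 to 7485 normalized counts in het and 1343 to 1794 in KO. The germ cell genes Mael, Dazl and Ddx4 were abundant in every library, and none of 12 gonocyte markers was called by limma, edgeR or DESeq2 or had an unadjusted p under 0.05. The 19 macrophage and blood cell genes found, from cells in which HIN-200 genes are well known, summed to 2710 to 4204 in het and 2719 to 3924 in KO, with none listed at 0 in all libraries. None of the 19 was called by limma, edgeR or DESeq2. At an unadjusted p under 0.05, 1 was lower, beside 2.44% of all tested genes. The macrophage gene C1qb was highest in het replicate 3 (487.6) and KO replicate 2 (128.1), and at 11.87 to 18.35 in the other 4 libraries.

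Sertoli cell markers had negative log2 differences for 8 of 8 genes. Limma and edgeR called none of them, and DESeq2 called 2, beside 65 of all 26005 tested genes that it called lower. At an unadjusted p under 0.05, 4 of the 8 were lower, beside 2.44% of all tested genes. The Sertoli cell markers summed to 18830 to 38610 in het and 13170 to 18840 in KO. Leydig cell markers summed to 26330 in het replicate 3 and 814.3 to 1590 elsewhere. Without het replicate 3 and KO replicate 2 the log2 difference of Ifi203-ps was 2.40. The 5 endothelial markers summed to 2275 to 2996 in het and 3511 to 4182 in KO, so the sums did not overlap. Only 1 of the 5, Tek, had groups that were apart, and the groups of each other marker overlapped. The log2 difference was positive for 4 markers and negative for 1 (Pecam1, -0.26). The sums therefore do not show a rise of endothelial markers in general. Limma and edgeR called none of the 5. Tek, an endothelial receptor, was the 1 higher at an unadjusted p under 0.05, beside 4.42% of all tested genes. Tek had 834.4, 1043 and 587.1 normalized counts in het, against 2344, 1244 and 2396 in KO (ratio of means 2.43, limma adjusted p = 0.201, DESeq2 adjusted p = 0.00913). A TE copy called higher lies inside Tek, off its exons, as it does in 3.40% of 25967 tested genes with a position. Such copies also lie inside Naip5 and inside the markers Cdh5, Adgre1 and Mrc1, and the groups of these 3 markers overlapped. A link between the copies and the values of these genes was not tested. The part of these other cells in the HIN-200 values was not tested. In such bulk samples, fewer cells of a type and less RNA per cell cannot be told apart.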

How the data were processed

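RNA was extracted from sorted P0 gonocytes and made into libraries with the SMART-seq v4 and TruSeq kits, per the labels' protocols. The submitters' processing notes name bcl2fastq 2.20, cutadapt 1.18, HISAT2 2.1.0, featureCounts 1.5.2, DESeq2 1.26.0 and the build GRCm38, with no role or order. The labels list 12 samples, of which the 6 at P0 were used, and those at P3 were not analysed here. The deposited values of both tables are a signal: read counts that the authors scaled by library size factors, as the gene table's name says. For the TE table this was read from the values, 100% of which were whole multiples of 1 step per column, and its stage was taken from its name. The read counts recovered from these steps served the count tests and read totals only.

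Of 35666 genes, 35560 were matched to GENCODE M21. The main test was limma 3.58.1, run in R 4.3.3 (eBayes with trend, two-sided) for features whose mean reached 10, on log2(value + 1), het against KO without covariates, with Benjamini-Hochberg adjustment over all features tested of a table and a threshold of 0.05. Alternatives were edgeR 4.0.16 and DESeq2 1.42.0 on recovered reads, other pseudocounts, filters and scalings, and single libraries left out. In a simulation of 25213 genes of the gene comparison, limma recovered 31 of 49 genes changed by a log2 difference of 2 and 33 of 44 changed by 3. DESeq2 recovered 38 of 49 and 38 of 44. Calls among unchanged genes numbered 11 for limma, 13 for edgeR and 46 for DESeq2, so genes that passed only DESeq2 are less certain.

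The members and lists were chosen with earlier results of these data known. Named were all HIN-200 genes, the called and the 3 most abundant genes of each pathway list, the genes and the 5 most changed called copies near Ifi203, and 5 genes of like profile. The long copies and Naip5 were added after their values were seen. Reads carry no molecular identifiers here, so the floor of 3 reads covers counting error only.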

Additional observations from a re-analysis of the deposited data

How the results depend on the processing

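The count of listed family genes higher in KO was 1, which is Ifi203, chosen for its rise, so its presence in every count says nothing about stability. The count rose to 3 with DESeq2 and to 2 with a pseudocount of 10, by Mndal and Ifi205 in the first and Mndal in the second. The count of TE copies near Ifi203 higher in KO was 5, and was 2 with a pseudocount of 0.1, 3 with quantile normalization and 0 to 5 with single libraries left out. Leaving out KO replicate 1 gave the 0, with 4 copies tested. No copy near Ifi203 reached a mean of at least 50. The count of interferon-stimulated genes higher in KO was 1, and 0 without the limma trend and 0 to 1 with single libraries left out. Same-numbered libraries did not deviate together (correlations of 0.138, -0.163 and -0.044), so the numbers were not taken as pairs. With the replicate block none of the family genes beside Ifi203 was called, in a count of 1, the copies near Ifi203 numbered 3 in limma and 1 in edgeR, and the interferon-stimulated genes 0 in both.

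Leaving out single libraries turned the sign of 5 uncalled genes: log2 differences ranged from -0.07 to 1.04 for Ifi202b, from -0.98 to 1.33 for Ifi208, from -0.75 to 0.05 for Ifi209, from -0.05 to 0.67 for Ifi211 and from -2.14 to 0.25 for Ifi214. Over all genes, 112 were called higher with limma, 400 with DESeq2 and 17 without KO replicate 3. Quantile normalization and gene size factors moved the median of all TE copies from 0.03 to -0.41 and 0.38, and 84.8% and 98.0% of called copies were then higher, beside 95.5%. Leaving out together het replicate 3 and KO replicate 2, the libraries highest in C1q genes, was chosen after seeing the data and gave counts of 1, 4 and 1. The low read numbers of Mndal, Ifi205 and the TE copies limit the precision of their differences.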
